A study of Mus musculus with 8 samples.

Results

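Satellite cells, the stem cells of adult skeletal muscle, were compared before and after expansion in culture. The comparison used 4 of the 8 RNA-seq libraries of the series, namely 2 of satellite cells freshly isolated from adult mouse muscle (SF1 and SF2) and 2 of satellite cells at passage 8 (SE1 and SE2). The members were chosen by group alone, as every library labelled fresh or expanded satellite cells. The other 4 libraries came from fresh (TF) and expanded (TE) myogenic cells of teratomas, tumors grown from pluripotent stem cells, and served to estimate the spread and to test whether the change with culture depended on the origin of the cells. The sources used here named no transgene or treatment other than culture for SE or SF. Cultured cells grew on gelatin in a myogenic expansion medium and were split every few days. The strain, age and sex of the donors and the sort gate of the satellite cells were not given in the sources used here, and the labels did not link a cultured library to the animals of a fresh one. The replicates were described as biological, and p-values measure the spread between these libraries.

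In resting muscle, satellite cells lie quiescent between the fiber and its basal lamina, with Pax7 as their defining transcription factor and with Notch and calcitonin receptor signaling helping to hold them out of the cell cycle. Once activated they express Myod1, divide as myoblasts, then switch on Myog, leave the cell cycle, fuse and build sarcomeres. Enzymatic isolation from muscle takes time and is itself known to induce stress and immediate early genes, so a fresh library shows cells after isolation and not cells in situ.

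Total counts were 13973324 in SF1, 16872742 in SF2, 21146554 in SE1 and 17035767 in SE2, with between 17% and 21.3% of them on Rn45s, the precursor of ribosomal RNA. Levels are given below as CPM, a gene's counts in a library brought to 1e+06 counts, on totals scaled by the trimmed mean of M values (TMM), and 3 counts in a library, the limit used for a gene with no counts, corresponded to between 0.141 and 0.218 CPM. One library stood apart. SF1 had a count for 22138 genes, against between 15856 and 17119 in the other three, and for 743 of 1127 olfactory receptor genes, which muscle cells do not use, against 43 in SF2, 26 in SE1 and 26 in SE2. Genes at a few CPM in SF1 are therefore uncertain, and counts are also given without SF1. Some genes at higher levels were also far above SF2 in SF1, among them Kcnq1ot1 (8816 CPM in SF1, 1549 CPM in SF2). Differences between replicates exceeded sampling noise in both groups, with a chi-square per degree of freedom of 49.2 in SF and 87.2 in SE. Transcripts of chromosome Y were present in all 4 libraries (Ddx3y between 59.4 and 304 CPM), and Xist, the RNA of the inactive X chromosome, was at 10.7 and 9.02 CPM in SF1 and SF2 and at 0.05 and 0.34 CPM in SE1 and SE2. The part of donor sex in any difference between SE and SF was not tested.

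SE and SF differed in a large share of the transcriptome. Of 17582 genes tested, 7152 (40.7%) differed between SE and SF at an adjusted p below 0.05 and past a small minimum fold change, in edgeR's quasi-likelihood test with Benjamini-Hochberg adjustment, which is what rose, fell and called mean below. Of these, 3677 (20.9% of tested genes) were higher and 3475 (19.8%) lower in SE, and these shares are the background for the gene lists below. Changes above 4-fold were more often decreases, with 2340 lower and 1274 higher genes. No count in either SE library was found for 411 of the lower genes, whereas 27 of the higher genes had no count in either SF library. Without SF1, 3013 genes were higher and 2530 lower. Of the decreases, 2768 had a mean level of 5 CPM or more, of which 2154 were also called without SF1, against 292 of the 707 below that level. With DESeq2 and its own size factors the split was 3366 higher and 4870 lower. Median-ratio size factors moved all log2 fold changes by a median of -0.19, against a median of -0.23 over all tested genes with TMM, so changes of that size have no firm direction.

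**Figure D1:**
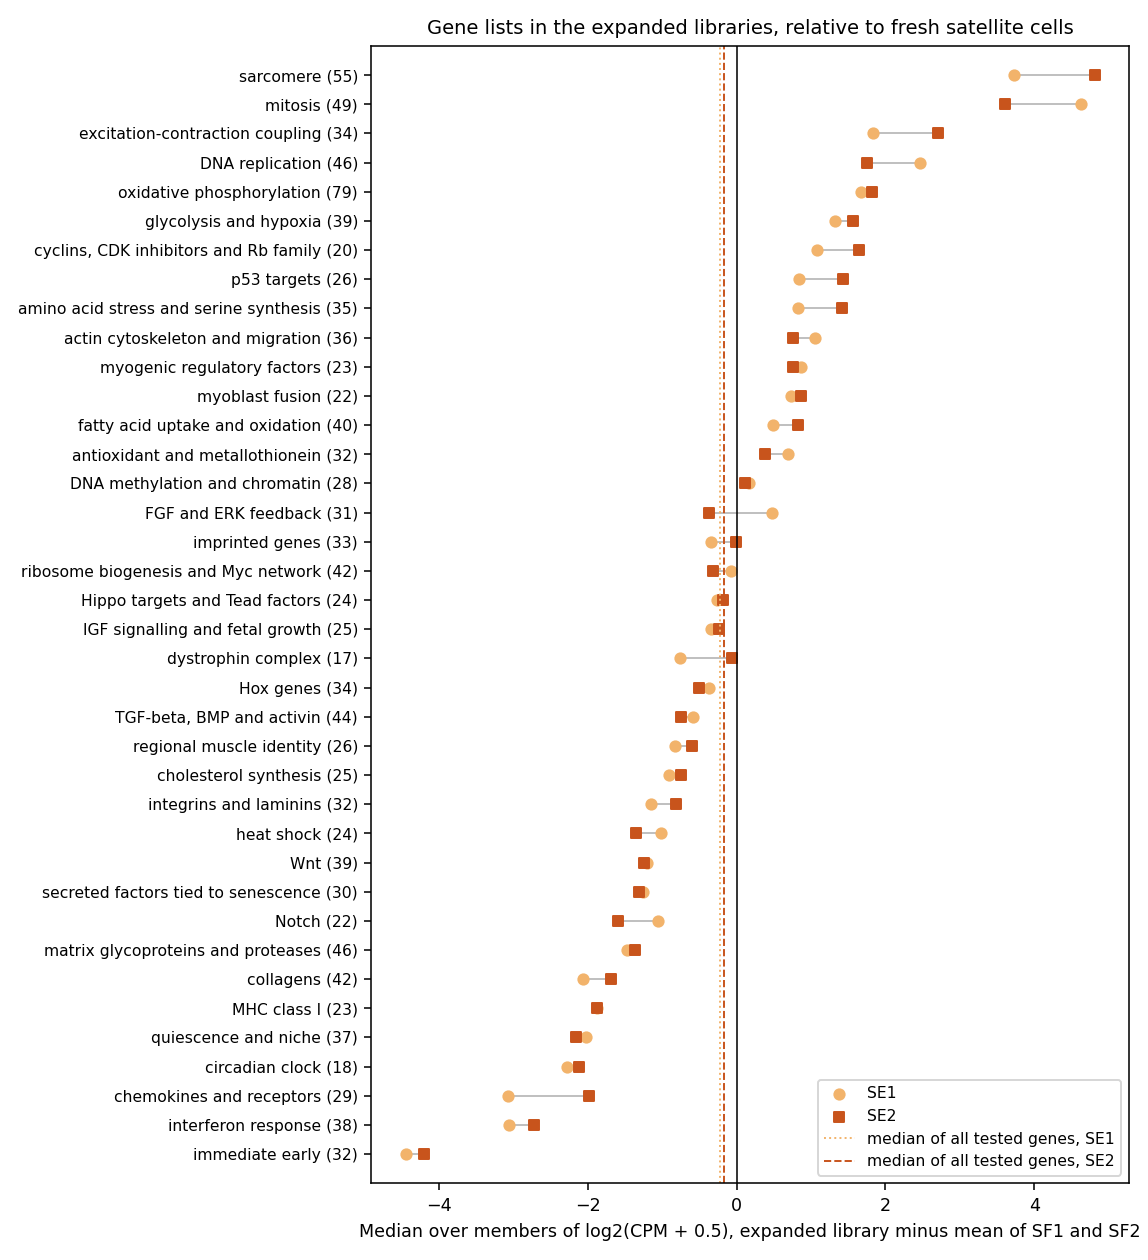
Median log2 difference of each expanded library (SE1 circles, SE2 squares) from the mean of both fresh libraries, on log2(CPM + 0.5), for 38 gene lists with the number of tested members in parentheses and the medians of all tested genes as vertical broken lines. Sarcomere and mitosis genes lie farthest to the right and immediate early genes farthest to the left, and SE1 and SE2 change places between the sarcomere and mitosis lists.

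The genes with the largest increases, among those with more than 3 counts in each of the 4 libraries and a mean of at least 5 CPM, were mostly genes of contractile and fusing muscle cells. Tnnt2 is a troponin T of embryonic and cardiac muscle. It was at 0.654 and 0.74 CPM in SF1 and SF2 and at 443 and 1121 CPM in SE1 and SE2. Its log2 fold change was 10.11 ± 0.57 (adjusted p = 3.28e-06). Here and below, ± gives a standard error derived from the log2 fold change and its quasi-likelihood statistic, not the spread of the SE libraries. Myog, the factor that commits myoblasts to differentiate, went from 0.509 and 0.875 CPM to 263 and 900 CPM (9.69 ± 0.689, adjusted p = 9.28e-06). Both genes were thus close to the detection limit in fresh cells, and in both SE2 held more than SE1. Actc1, Tnni1, Myl4, Myh7 and Mymk followed, with log2 fold changes between 7.61 and 8.88. H19, the imprinted noncoding RNA beside Igf2, was at 37.4 and 28.9 CPM in SF and at 8306 and 18732 CPM in SE (8.67 ± 0.795). The other two of the 10 genes were the histone gene Hist1h2ac (8.13 ± 0.364) and Spp1, encoding the secreted protein osteopontin, which rose from 7.85 and 13.1 CPM to 4278 CPM in SE1 and 1333 CPM in SE2 (8.06 ± 0.692). Among genes with no count in SF the most abundant in SE were Hist1h2bk, Hist1h2ae, Entpd4b, Hist1h3g and Hist1h4f, at least 170-, 157-, 156-, 149- and 131-fold higher. Clustered histone genes are close copies of each other and Entpd4b of Entpd4, so counts may have been divided among the copies.

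The 10 largest decreases included genes induced by stress and inflammation and the surface marker gene Cd34. Fosb, a member of the AP-1 transcription factor, was at 2383 and 2784 CPM in SF and at 1.56 and 1.43 CPM in SE (-10.75 ± 0.304, adjusted p = 3.09e-07). The inducible heat shock genes Hspa1a (-9.64 ± 0.859) and Hspa1b (-9.00 ± 0.759), a pair of near-identical copies, fell from between 3122 and 3629 CPM to at most 11.5 CPM. Cxcl1, a chemokine that attracts neutrophils, fell from 703 and 991 CPM to 0.471 and 1.94 CPM (-9.49 ± 0.692). Cd34, a surface marker of quiescent satellite cells that endothelial and interstitial cells also carry, fell from 145 and 191 CPM to 0.943 and 0.229 CPM (-8.09 ± 0.448). Sparcl1, Map2, Icam1, Prg4 and H2-Q4 fell as well, with log2 fold changes of -8.95, -8.78, -8.42, -8.32 and -8.04. Among genes without a count in SE the highest in SF were the complement genes C3 (249 and 594 CPM) and C7 (152 and 327 CPM), the satellite cell surface gene Chodl (362 and 395 CPM), Fgl2 (163 and 279 CPM) and the laminin gene Lama3 (197 and 197 CPM), which makes them at least 2694-, 1531-, 2421-, 1413- and 1258-fold lower in SE. In the plot of the 10 largest increases and 10 largest decreases by library, SF and SE do not overlap. This follows from choosing the genes by the size of their change.

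**Figure D2:**
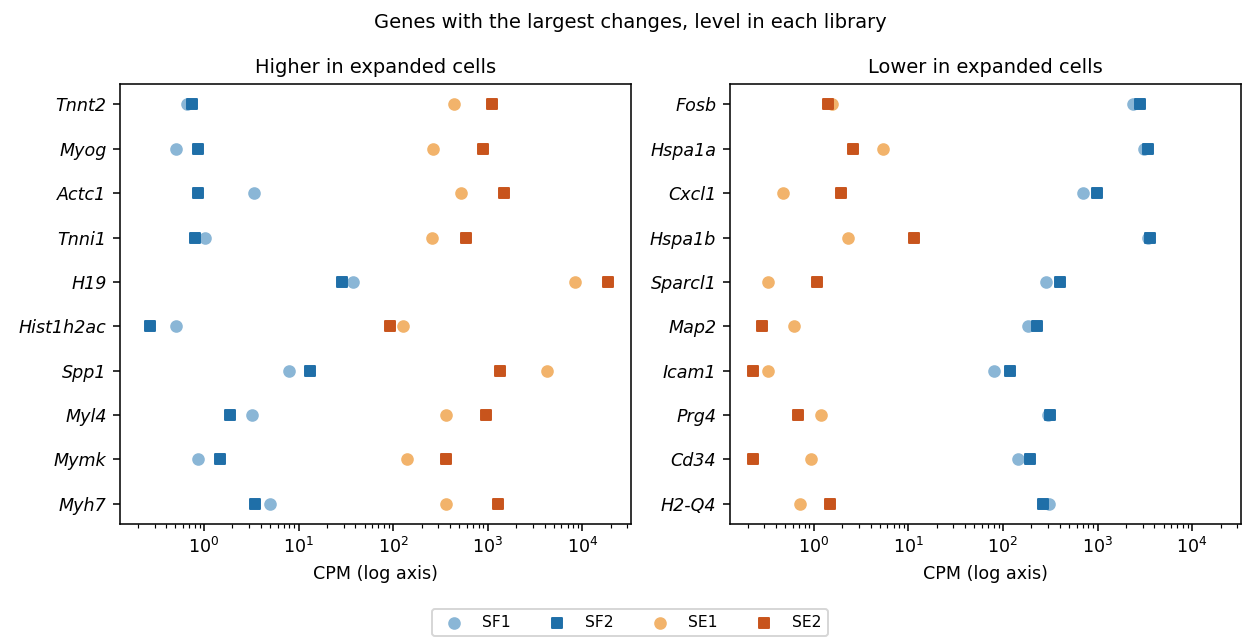
CPM on a log axis in SF1, SF2, SE1 and SE2 for the 10 genes with the largest increase (left) and the 10 with the largest decrease (right) among called genes with more than 3 counts in every library. Each point is 1 library. The genes were chosen for the size of their change, so the gap between fresh and expanded libraries follows from that choice.

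Genes of quiescence and of the niche fell more often than tested genes at large. Of 37 such genes 26 fell, 4 rose and 7 were not called, with a median log2 fold change of -1.90. Pax7 was at 231 and 270 CPM in SF1 and SF2 and at 115 and 78.2 CPM in SE1 and SE2 (-1.38 ± 0.274, adjusted p = 0.00325), so transcripts of the defining factor were reduced 2.6-fold and remained well above the detection limit. Calcr, the calcitonin receptor, was at 81.6 and 84.3 CPM in SF and had no count in either SE library, at least 530-fold lower. Vcam1 fell from 307 and 388 CPM to 118 and 69.1 CPM (-1.90 ± 0.277), and Spry1, an inhibitor of fibroblast growth factor signaling that is tied to the return to quiescence, fell from 179 and 197 CPM to 10.4 and 29 CPM (-3.26 ± 0.404). Itga7, the integrin used to sort myogenic cells, was at 160, 228, 240 and 384 CPM in SF1, SF2, SE1 and SE2 and was not called (0.68 ± 0.27, adjusted p = 0.0679), although it passed without SE1 (0.00764) and without SF2 (0.0284). Cdh15, the M-cadherin of the fiber contact, rose from 111 and 150 CPM to 197 and 237 CPM. The 4 higher genes were Megf10, Sdc3, Cdh15 and Met, named here after their values were seen. Without SF1, 23 genes of the list fell and 1 rose, and with median-ratio size factors 27 fell and 1 rose. Chrdl2 (247 and 321 CPM in SF, 0 and 0.8 CPM in SE) and Tek (77.6 and 99.1 CPM in SF, 0 and 0.286 CPM in SE) had, with Cd34, the largest fitted decreases of the list. Tek is also a marker of endothelial cells, whose summed markers fell from 464 and 592 CPM to 7.45 and 9.43 CPM. Their part in the decrease of Tek was not tested.

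Among 23 myogenic regulatory genes 10 rose and 6 fell (5 without SF1, 3 without SF2). Myf5 fell from 84.5 and 102 CPM to 5 and 7.83 CPM (-3.86 ± 0.44, adjusted p = 0.000128). Myod1 was at 386 and 522 CPM in SF and at 692 and 713 CPM in SE (0.63 ± 0.229, adjusted p = 0.0516), just short of the threshold, and it passed without SF2 (0.0191). High Myod1 transcript levels were thus already present in the fresh libraries. Mef2c, a partner of the myogenic factors in differentiation, rose from 17.2 and 17.2 CPM to 151 and 324 CPM (3.79 ± 0.439), and Msc, a repressor of the myogenic factors, had 121 and 166 CPM in SF and no count in SE (at least 917-fold lower). Of 22 genes of myoblast fusion 13 rose and 5 fell. Mymk, encoding the fusogen myomaker, rose from 0.872 and 1.48 CPM to 140 and 365 CPM (7.73 ± 0.527). Its partner Mymx, with 1 count in SF altogether, was at 11.7 CPM in SE1 and 20.4 CPM in SE2 (adjusted p = 3.69e-05), and the cadherin Cdh2 (4.21 ± 0.264) and the caveolin Cav3 (4.87 ± 0.823) rose with them. The 5 lower fusion genes were Cd9, Kirrel, Dock1, Elmo1 and Nphs1, a count that was 2 without SF2.

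Most genes of the contractile apparatus rose. Of 55 sarcomere genes 43 rose and 2 fell, with a median log2 fold change of 4.29, and their summed level was 2571 CPM in SF1, 2565 CPM in SF2, 25479 CPM in SE1 and 48680 CPM in SE2. Myh3, the embryonic myosin heavy chain, rose from 2.69 and 0.135 CPM to 4486 and 8476 CPM (12.19 ± 0.987, adjusted p = 1.99e-05), and Myh8, the perinatal chain, from 2.98 and 0 CPM to 762 and 2360 CPM (10.06 ± 1.19). Acta1, the actin of adult skeletal muscle, went from 54.2 and 31 CPM to 977 and 2622 CPM (5.40 ± 0.577), and the giant scaffold Ttn from 215 and 104 CPM to 4252 and 6339 CPM (5.05 ± 0.443). Ckm, the muscle creatine kinase of mature fibers, behaved otherwise, with 14.8, 11.3, 8.53 and 66.1 CPM in SF1, SF2, SE1 and SE2 (1.51 ± 0.746, adjusted p = 0.13), so that SE1 lay below both fresh libraries and SE2 above them. The 2 lower genes, named after their values were seen, were Myh2 and the widely used tropomyosin Tpm3. Myh2 is a fast adult myosin with close copies beside it. It was at 19.7 and 4.71 CPM in SF and at 1.04 and 3.32 CPM in SE. Another fast adult myosin, Myh1, rose from 28.2 and 21.1 CPM to 1939 and 4263 CPM (6.97 ± 0.483). Without SF1 1 gene fell and 45 rose. The 14 markers of mature fibers, of which 10 are members of the sarcomere list, summed to 348 and 325 CPM in SF. In SE they summed to 2905 and 6890 CPM, most of it from Myh1. Of these markers 8 rose, Myh2 fell and the others were not called. Whether some cells of the cultures had differentiated or all of them carried more of these transcripts cannot be told apart in RNA from a whole culture, and for every result here fewer cells of a type and less RNA per cell cannot be told apart.

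The calcium release and synaptic machinery rose as well. Of 34 genes of excitation-contraction coupling 21 rose and 2 fell (Ryr3 and Kcnj2), with a median of 2.51. Chrng, the fetal acetylcholine receptor subunit, went from 2.03 and 0 CPM to 184 and 312 CPM (7.96 ± 0.861), whereas Chrne, the adult subunit, was at 1.02, 0.202, 1.08 and 1.09 CPM in SF1, SF2, SE1 and SE2 and was not called (adjusted p = 0.764). Cacng1 (6.93 ± 0.76), Chrnd (6.80 ± 0.417) and Trdn (6.09 ± 0.828) were the other largest increases. The dystrophin complex, which ties the cytoskeleton to the matrix, was divided, with 6 of 17 genes higher and 7 lower. Dmd, encoding dystrophin, fell from 389 and 410 CPM to 36.6 and 107 CPM (-2.47 ± 0.439) and its homolog Utrn from 803 and 897 CPM to 490 and 406 CPM (-0.92 ± 0.187), while the dystrobrevin Dtna (3.26 ± 0.478) rose. The core of the E box bound by the myogenic factors, CAGCTG, which reads the same on both strands, was present in 42.2% of the promoters of sarcomere genes (19 of 45 with a promoter) and in 18.3% of all 27025 genes with one, where a promoter ran from 250 bases before to 50 bases after the start site in RefSeq (GRCm38.p6). The 150 bases before the start of Mylpf, a fast myosin light chain that rose from 3.71 and 1.68 CPM to 291 and 557 CPM, are shown because they hold 1 such match, in capitals.
Mylpf (chr7:127211458-127211607, plus strand): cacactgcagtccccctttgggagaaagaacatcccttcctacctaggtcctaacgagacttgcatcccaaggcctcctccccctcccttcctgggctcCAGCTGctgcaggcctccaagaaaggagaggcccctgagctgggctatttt

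Genes of cell division rose alongside the genes of differentiation. Of 49 mitosis genes 44 rose and 1 fell, with a median log2 fold change of 4.51, and their summed level was 678, 256, 4775 and 2321 CPM in SF1, SF2, SE1 and SE2. Mki67, the marker of cycling cells, rose from 13.1 and 13.9 CPM to 692 and 278 CPM (5.17 ± 0.417, adjusted p = 1.98e-05). Ccnb1 rose from 2.91 and 1.28 CPM to 87.6 and 30.2 CPM (4.82 ± 0.573) and its kinase Cdk1 from 2.91 and 1.75 CPM to 73 and 36.9 CPM (4.56 ± 0.447). Kif4, Melk, Ndc80 and Kif23 rose by between 5.84 and 6.81 on the log2 scale. SE1 was above SE2 for each of these genes, and both were above the fresh libraries. The exception was Bora, named after its values were seen, which was at 334 CPM in SF1 and 43.3 CPM in SF2 against 23.9 and 14.5 CPM in SE and was not called without SF1. A pair of sequences tied to the timing of mitotic genes were counted in their promoters on both strands. TTTGAA, the core of the cell cycle homology region, was in 70% of them (28 of 40) and in 20.2% of all genes with a promoter, and CCAAT, bound by NF-Y, in 72.5% and 41.1%. The windows of Cdk1 and Mki67 are shown because each holds 2 matches to TTTGAA, in capitals.
Cdk1 (chr10:69352913-69353062, minus strand): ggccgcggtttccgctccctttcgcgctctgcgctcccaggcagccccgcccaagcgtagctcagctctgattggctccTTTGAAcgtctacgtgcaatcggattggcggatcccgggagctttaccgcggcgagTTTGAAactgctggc
Mki67 (chr7:135716380-135716529, minus strand): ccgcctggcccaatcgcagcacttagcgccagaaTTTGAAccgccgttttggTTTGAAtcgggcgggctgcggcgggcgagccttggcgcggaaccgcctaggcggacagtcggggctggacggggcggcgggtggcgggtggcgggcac

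DNA replication genes rose in 35 of 46 cases, with 1 decrease and a median of 2.17, and 31 rose without SF1. Uhrf1, which recruits the maintenance methyltransferase to new DNA, rose from 4.72 and 0.202 CPM to 113 and 51.9 CPM (5.09 ± 0.836), and Brca1 (4.82 ± 1.06), Rfc3 (3.98 ± 0.76) and Ccne1 (3.85 ± 0.725) followed. Not every replication gene was higher. Pcna, the sliding clamp, was at 79.6 and 101 CPM in SF and at 75 and 39 CPM in SE (-0.66 ± 0.287, adjusted p = 0.0898), and with other settings it passed as a decrease (adjusted p = 0.0236 with DESeq2 and 0.0405 with median-ratio size factors). Mcm5 was at 12.7 and 6.53 CPM in SF and at 46.8 and 12.5 CPM in SE (1.62 ± 0.553, adjusted p = 0.0405), a call that rested on SE1, since without it the adjusted p was 0.496. The call was also lost without SF2 (0.154) and with median-ratio size factors (0.0702). The decrease was Tyms (233, 41.1, 39.6 and 25 CPM in SF1, SF2, SE1 and SE2), and it was not called without SF1. The consensus of the E2F factors, TTTGGCGC or TTTCGCGC on either strand, was in 33.3% of the promoters of replication genes (12 of 36) and in 0.929% of all genes. Rfc3 and Mcm5 each hold 1 match, in capitals, in the 150 bases before their start, in Mcm5 on the opposite strand.
Rfc3 (chr5:151651209-151651358, minus strand): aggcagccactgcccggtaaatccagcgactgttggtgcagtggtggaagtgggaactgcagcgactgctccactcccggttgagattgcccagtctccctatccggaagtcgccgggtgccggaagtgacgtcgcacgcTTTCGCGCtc
Mcm5 (chr8:75109359-75109508, plus strand): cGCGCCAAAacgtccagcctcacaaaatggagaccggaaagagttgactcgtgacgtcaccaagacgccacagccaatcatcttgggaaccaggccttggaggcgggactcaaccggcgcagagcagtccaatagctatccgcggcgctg

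Both drivers and brakes of the cell cycle were higher in culture. Of 20 cyclins, inhibitors of cyclin-dependent kinases and retinoblastoma family genes 11 rose and 4 fell. Ccnd1, the cyclin that carries mitogen signals, rose from 24.1 and 31.9 CPM to 607 and 249 CPM (3.93 ± 0.425). Cdkn2a, the locus of the inhibitor p16 and of Arf, whose transcripts the table does not separate, rose from 0.581 and 0.0673 CPM to 78.2 and 71.6 CPM (7.85 ± 0.637, adjusted p = 2e-05), and its neighbor Cdkn2b from 1.38 and 0.336 CPM to 78.5 and 46.4 CPM (6.19 ± 0.59). These 2 inhibitors were close to the detection limit in SF2. Cdkn1a, encoding p21, rose from 162 and 196 CPM to 257 and 490 CPM (1.06 ± 0.301, adjusted p = 0.0192), and this call was lost without SE2 (0.112) and without SF1 (0.0972). Cdkn1b, encoding p27, fell from 47.2 and 64 CPM to 16.4 and 31.3 CPM (-1.22 ± 0.303). Cdkn1c, encoding p57, was at 32.8, 50.4, 28.9 and 148 CPM in SF1, SF2, SE1 and SE2 (1.09 ± 0.565, adjusted p = 0.147), with SE1 below both fresh libraries and SE2 above them, and without SE1 it passed as an increase (4.84e-05). The antiproliferative gene Btg2, which is also an immediate early gene, fell from 575 and 681 CPM to 27.6 and 27 CPM (-4.52 ± 0.209). Of 26 targets of p53, 14 rose and 3 fell. Ccng1 (4.29 ± 0.214) and Psrc1 (6.72 ± 0.824) had the largest increases, Mdm2 rose modestly (0.93 ± 0.21), and the death receptor Fas fell from 38.9 and 48.9 CPM to 0.519 and 2.12 CPM. Of 30 secreted factors and other genes tied to senescence 15 fell and 4 rose, with Il6 at 128 and 177 CPM in SF and at 0 and 0.172 CPM in SE, Mmp3 at least 182-fold lower, Igfbp5 lower (-1.08 ± 0.264, not called without SE1, adjusted p = 0.0588) and Lmnb1, a nuclear lamin whose loss marks senescence, higher (2.06 ± 0.316).

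SE1 and SE2 differed from each other in the levels of genes of division and of differentiation. The ratio of SE2 to SE1 is a description of a single pair of libraries and has no test. On log2(CPM + 1) it lay between -0.96 and 1.08 for the middle 90% of 11546 genes with a mean of at least 5 CPM, with a median of -0.01. Sarcomere genes were higher in SE2 in 53 of 55 cases, with a median of 1.20, and genes of excitation-contraction coupling in 31 of 34 cases, with a median of 0.93. Mitosis genes were higher in SE2 in 1 of 49 cases and replication genes in 3 of 46, with medians of -0.97 and -0.90. Quiescence genes (0.19) and oxidative phosphorylation genes (0.13) had medians closer to 0. Of all 17582 tested genes, 8385 were higher in SE2 than in SE1. The fresh pair also differed in these lists. Its median log2 ratio of SF2 to SF1 was -0.67 for mitosis, -0.23 for replication, -0.44 for sarcomere and -0.28 for excitation-contraction coupling genes. Some members were at low levels where SF1 is uncertain, such as Kif4 (0.727 and 0 CPM in SF1 and SF2) and Chrng (2.03 and 0 CPM). Compared with the fresh libraries the sarcomere and mitosis lists were raised in both cultures, with medians of 3.72 in SE1 and 4.81 in SE2 for the sarcomere and of 4.63 and 3.61 for mitosis. The genes with the largest excess in SE2 included Ckm, the muscle noncoding RNA Lincmd1 (4.67 and 68.2 CPM in SE1 and SE2), the sarcomere protein gene Ankrd23 (11.2 and 77.9 CPM), the calcium channel gene Cacna1h (6.74 and 45 CPM), Camk2b (2.97 and 22.2 CPM) and Igf1 (2.83 and 25.2 CPM), with S1pr1, Plekha7 and Hist1h4n. Those with the largest excess in SE1 included the neurofilament genes Nefm (105 and 4.86 CPM) and Nefl (59.3 and 2.8 CPM), the sodium channel gene Scn9a (272 and 40.4 CPM), Selp (49.5 and 2.29 CPM), Apln (47.7 and 4.52 CPM), the growth factor gene Areg (20.3 and 2.29 CPM) and the inositol transporter gene Slc5a3 (403 and 65.2 CPM), with Add2, Adamtsl3 and Alcam. Medians over the genes of each chromosome differed between SE2 and SE1 by between -0.06 and 0.07 on the log2 scale.

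**Figure D3:**
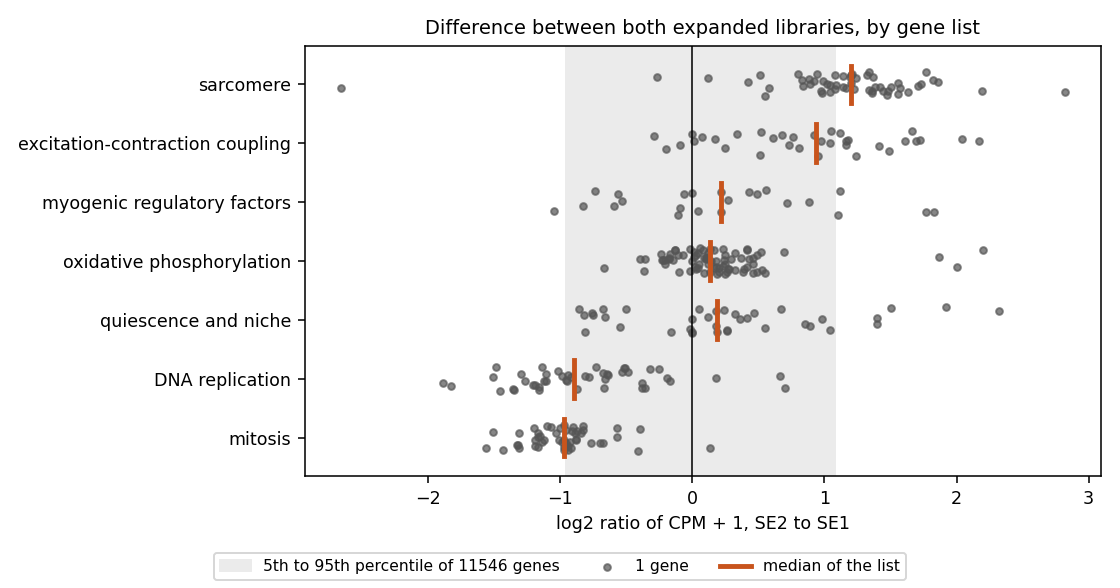
Log2 ratio of SE2 to SE1 on CPM + 1 for each tested gene of 7 lists (points), with the median of the list (bar) and the 5th to 95th percentile of 11546 genes with a mean of at least 5 CPM (grey band). Sarcomere genes lie mostly to the right of 0, replication and mitosis genes to the left.

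Genes induced by acute stress had the most uniform decrease. Of 32 immediate early genes 30 fell and 0 rose (31 fell without SF1), with a median log2 fold change of -4.25 and a summed level of 23482, 28284, 1444 and 1542 CPM in SF1, SF2, SE1 and SE2. At an unadjusted p below 0.05, 8897 genes of the whole table differed, and by DESeq2 0 immediate early genes rose too. Fos fell from 1409 and 1684 CPM to 12.4 and 12.6 CPM (-6.95 ± 0.272, adjusted p = 1.26e-06), Egr1 from 3883 and 4207 CPM to 127 and 71.9 CPM (-5.34 ± 0.326) and Nr4a1 from 805 and 1014 CPM to 3.35 and 9.09 CPM (-7.20 ± 0.469). Jun fell less, from 1490 and 1708 CPM to 358 and 349 CPM (-2.18 ± 0.199). Zfp36, which destabilizes cytokine mRNAs, fell by 6.63 on the log2 scale. Of 27 promoters of these genes, 2 (7.41%) held the CArG box of the serum response factor, against 1.81% of all promoters, and 4 (14.8%) held TGACGTCA, the cAMP response element, against 2.03%, on either strand. Among 24 heat shock and chaperone genes 13 fell and 6 rose. The inducible genes Dnajb1 (544 and 556 CPM in SF, 27 and 27.2 CPM in SE, -4.34 ± 0.187) and Bag3 (-3.13 ± 0.25) fell with Hspa1a and Hspa1b, while the chaperones of the endoplasmic reticulum Hsp90b1 and Pdia4 were among the 6 that rose, a count that was 3 without SE1 and 3 without SF1. Of 18 genes of the circadian clock and its output 13 fell and 0 rose (12 fell without SF1), with a median of -2.24. Per1 fell from 266 and 313 CPM to 21.2 and 30.6 CPM (-3.48 ± 0.232), Bhlhe40 from 332 and 374 CPM to 13.8 and 39 CPM (-3.74 ± 0.41) and Npas2 from 52.4 and 60.8 CPM to 0.141 and 0.515 CPM (-7.45 ± 0.525), while Dbp was at 7.27, 9.83, 7.17 and 15.1 CPM in SF1, SF2, SE1 and SE2 and was not called (adjusted p = 0.539). The time of day at which cells were taken was not given in the sources used here.

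Signaling genes moved member by member. In the Notch pathway, which keeps satellite cells quiescent, 12 of 22 genes fell and 4 rose. The receptor Notch3 fell from 836 and 997 CPM to 173 and 155 CPM (-2.48 ± 0.232), the ligand Jag1 from 145 and 183 CPM to 9.38 and 15.5 CPM (-3.72 ± 0.29), and the targets Hey1 (33.9 and 55.6 CPM in SF, 4.57 and 5.6 CPM in SE, -3.14 ± 0.39) and Heyl (181 and 194 CPM in SF, 15.2 and 41.7 CPM in SE, -2.72 ± 0.4) fell too. The ligand Jag2 went the other way, from 9.67 and 7.4 CPM to 129 and 110 CPM (3.81 ± 0.294), as did Hes6, a Hes family member that counters Notch repression in differentiating cells, from 3.85 and 2.96 CPM to 162 and 147 CPM (5.51 ± 0.239). Notch3 also stands on the list of pericyte markers. In the Wnt pathway 18 of 39 genes fell and 7 rose (4 rose with median-ratio size factors). Axin2, a general target of the pathway, fell from 10.5 and 8.08 CPM to 2.12 and 2 CPM (-2.17 ± 0.383), and the secreted antagonists Sfrp1 (-4.65 ± 0.566), Sfrp2 (-5.14 ± 0.731) and Dkk1 (-4.89 ± 0.957) fell as well. Of 44 genes of transforming growth factor beta, bone morphogenetic protein and activin signaling 22 fell and 6 rose. Bmp4 fell from 67.4 and 92.2 CPM to 1.84 and 0.515 CPM (-6.04 ± 0.482), Bmp6 from 110 and 122 CPM to 0.99 and 0.572 CPM (-7.17 ± 0.357), and the coreceptor Tgfbr3 from 562 and 672 CPM to 1.27 and 0 CPM (-9.81 ± 0.751). Mstn, encoding the growth inhibitor myostatin, rose from 0.727 and 0 CPM to 16.5 and 35.8 CPM (6.17 ± 1.08). Its antagonist Fst was at 15.9, 39.3, 46.5 and 63.1 CPM in SF1, SF2, SE1 and SE2 and was not called (0.99 ± 0.388, adjusted p = 0.0672), although it passed without SF2 (0.00277) and without SE1 (0.0359).

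Receptor and feedback genes of the fibroblast growth factor and ERK pathway were divided, with 11 of 31 higher, 9 lower and a median of 0.03. These counts were sensitive to single libraries, with 6 higher without SE1, 7 higher without SF1 and 5 lower without SF2. Fgfr4 fell from 257 and 322 CPM to 59.1 and 122 CPM (-1.67 ± 0.333) and Egfr from 264 and 290 CPM to 43.2 and 34 CPM (-2.84 ± 0.257). The ERBB family receptor gene Erbb3 rose from 10.2 and 6.33 CPM to 61.6 and 178 CPM (3.86 ± 0.536) and the ERK phosphatase Dusp4 from 12.3 and 20.5 CPM to 200 and 77.9 CPM (3.08 ± 0.61). SE1 and SE2 thus differed in opposite ways for these 2 genes. Among Hippo pathway targets and the Tead factors that read it, 9 of 24 rose and 10 fell. Ccn2 fell from 269 and 333 CPM to 24 and 109 CPM (-2.18 ± 0.547), Ankrd1 rose from 118 and 148 CPM to 487 and 462 CPM (1.83 ± 0.259), the Tead genes Tead4 (4.67 ± 0.498) and Tead2 (3.64 ± 0.31) rose, and the muscle cofactor Vgll2 fell from 97.8 and 158 CPM to 4.29 and 3.83 CPM (-4.97 ± 0.399).

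Most markers of other cell types were higher in the fresh libraries than in the cultures. The 12 markers of fibro-adipogenic cells, the mesenchymal cells between fibers, summed to 4152 and 7712 CPM in SF1 and SF2 and to 143 and 242 CPM in SE1 and SE2, and 10 of them fell. Pdgfra, their defining receptor, was at 82.1 and 125 CPM in SF and at 2.64 and 1.43 CPM in SE. Gsn alone made up most of the sum in every library, at 2739 and 5273 CPM in SF and 92.9 and 131 CPM in SE. Dcn, Col15a1 and Dpt added to it. The 12 endothelial markers summed to 464 and 592 CPM in SF and to 7.45 and 9.43 CPM in SE, with Cdh5 and Kdr at 0 in both cultures. The 8 tenocyte markers summed to 558 and 618 CPM against 41.2 and 51 CPM, and 7 of them fell, whereas Scx, the transcription factor of tendon cells, rose from 5.45 and 10.4 CPM to 36.4 and 41.8 CPM and made up most of the sum in SE. The 10 Schwann cell markers summed to 234 and 230 CPM against 32.6 and 39.4 CPM. Markers of blood cells were low throughout, at 71.1, 70.3, 11.8 and 16.8 CPM, with Ptprc at 3.71 and 1.55 CPM in SF and at 0 in SE. Markers of pericytes and smooth muscle summed to 2798 and 3101 CPM in SF and to 2047 and 3663 CPM in SE, and 9 of the 12 fell while Des and Acta2 rose. Myh11, the myosin of smooth muscle, was at 377 and 324 CPM in SF and at 0.0943 and 0.343 CPM in SE. Adipocyte markers were below 10 CPM in sum in every library, and 0 of 8 were called. The satellite cell list itself was at 3969, 4728, 2523 and 2914 CPM. The part of these other cells in any decrease was not tested.

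**Figure D4:**
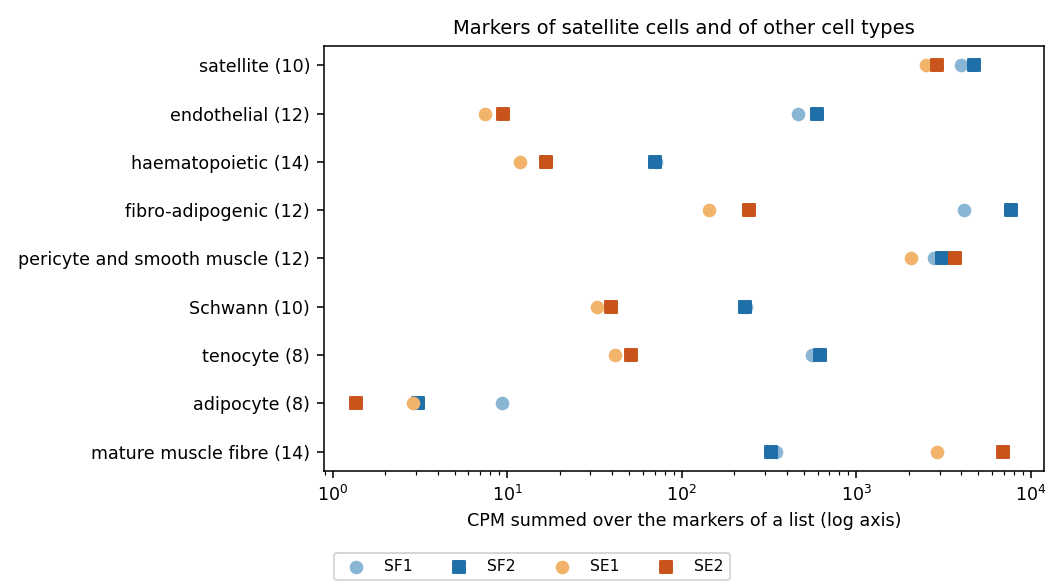
CPM summed over the markers of each cell type (number of markers in parentheses) in SF1, SF2, SE1 and SE2, on a log axis. Endothelial, fibro-adipogenic, Schwann and tenocyte sums are lower in both cultures than in both fresh libraries, and the mature fiber sum is higher.

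Matrix genes fell in the same direction as the fibro-adipogenic markers, whose sums fell from between 4152 and 7712 CPM to between 143 and 242 CPM. Of 42 collagen genes 27 fell and 5 rose, with a median of -2.21, and 2 of them are themselves among the markers of other cells. Col1a1 fell from 1004 and 1921 CPM to 201 and 505 CPM (-2.05 ± 0.505, adjusted p = 0.00983) and Col3a1 from 1371 and 2508 CPM to 916 and 790 CPM (-1.19 ± 0.308). In both genes SF2 held more than SF1, as it did for the fibro-adipogenic sum. Over the 42 collagens the median log2 ratio of SF2 to SF1 was 0.29, against 0.25 for quiescence genes. The part of fibro-adipogenic cells in the decreases of matrix genes was not tested. Col6a5, Col6a6 and Col22a1 had no count in SE and were at least 253-, 195- and 160-fold lower. The 5 higher collagens, named after their values were seen, were Col13a1, Col18a1, Col24a1, Col25a1 and Col26a1, of which Col18a1 of basement membranes rose from 96.2 and 111 CPM to 1313 and 737 CPM. Of 46 other matrix proteins and proteases 25 fell and 8 rose. Dcn, Lum, Vtn and Tnxb were each at 0 in at least 1 culture, with Tnxb at 1219 and 1558 CPM in SF and at 0 and 2.17 CPM in SE (-10.39 ± 0.98). Fn1, the fibronectin that satellite cells make when activated, rose from 416 and 513 CPM to 1328 and 856 CPM (1.23 ± 0.252), and Tnc was at 109, 146, 302 and 118 CPM in SF1, SF2, SE1 and SE2 and was not called (0.72 ± 0.363, adjusted p = 0.139). Tnc passed as an increase without SE2 (0.000732), and its difference turned to -0.09 without SE1. Of 32 integrins and laminins 13 fell and 5 rose (Itga3, Itga6, Itgb1, Itgb6 and Lamb1), with Lama4 of vessel and muscle basement membranes at 85.9 and 92.1 CPM in SF and at 0.66 and 0.972 CPM in SE (-6.77 ± 0.258). The actin cytoskeleton moved the other way, with 23 of 36 genes higher and 4 lower. Lgals1 rose from 60.8 and 86.6 CPM to 957 and 636 CPM (3.43 ± 0.278), Tmsb10 from 97.5 and 155 CPM to 1020 and 1137 CPM (3.10 ± 0.255), and Vim (1.37 ± 0.294), S100a6 (1.82 ± 0.357), S100a4 (3.67 ± 0.668) and Lgals3 (3.52 ± 0.499) rose as well. Without SE2 and without SF2, 2 genes of the list fell.

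Immune response genes were lower in culture. Of 38 interferon response genes 34 fell and 0 rose (32 fell without SF1), with a median log2 fold change of -3.56, and their summed level was 1192, 1316, 153 and 160 CPM in SF1, SF2, SE1 and SE2. By DESeq2 0 rose as well. Isg15, a ubiquitin-like protein induced by interferon, fell from 14.3 and 12.6 CPM to 0.424 and 0.229 CPM (-5.31 ± 0.614), and Parp14 fell from 92.2 and 110 CPM to 0.66 and 0 CPM (-8.13 ± 0.725). Of 23 genes of class I antigen presentation 14 fell, and 1 rose (the chaperone Pdia3). B2m, the shared light chain, fell from 135 and 168 CPM to 40.6 and 36.2 CPM (-1.98 ± 0.197), and the heavy chains H2-K1 (228 and 298 CPM in SF, 1.6 and 4.23 CPM in SE, -6.51 ± 0.486) and H2-D1 (307 and 411 CPM in SF, 3.49 and 6.75 CPM in SE, -6.14 ± 0.445) fell further. Class I heavy chains are close copies, so their counts may have been divided among members. Of 29 chemokines and chemokine receptors 15 fell and 0 rose (13 fell without SF1), and 10 of the 29 had no count in 1 of the groups. Cxcl14 (at least 334-fold), Cxcl2 (at least 287-fold) and Cxcl10 (at least 73.7-fold) were not counted in SE. Cxcl12 was at 113, 162, 141 and 39.4 CPM in SF1, SF2, SE1 and SE2 and was not called (-0.60 ± 0.475, adjusted p = 0.323), although without SE1 it passed as a decrease (0.000405). Cxcr4, its receptor, fell from 28.6 and 38.5 CPM to 13.9 and 19.6 CPM (-1.01 ± 0.35, adjusted p = 0.044), a call lost without SE1 (0.175), without SF1 (0.0529) and without SF2 (0.177). Blood cell markers were at 71.1 and 70.3 CPM in SF and at 11.8 and 16.8 CPM in SE, and endothelial markers at 464 and 592 CPM and at 7.45 and 9.43 CPM. Their part in these decreases was not tested.

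Genes of energy metabolism rose in oxidative phosphorylation and, less uniformly, in glycolysis. Of 79 nuclear genes of oxidative phosphorylation 75 rose and 0 fell (71 rose without SF1 and 0 fell, and 0 fell by DESeq2), with a median log2 fold change of 1.77, and their summed level was 1927, 2416, 6592 and 7176 CPM in SF1, SF2, SE1 and SE2. The increases were of similar size in SE1 and SE2, with medians of 1.67 and 1.82. Atp5o of the ATP synthase rose from 13.5 and 22.5 CPM to 129 and 134 CPM (2.87 ± 0.25). The subunit isoforms specific to muscle and heart were less uniform. Cox6a2 rose from 1.45 and 0.135 CPM to 11 and 42.9 CPM (5.09 ± 1.04), Cox8b from 0.581 and 0.942 CPM to 4.53 and 24.4 CPM (4.23 ± 0.925, lost without SE2 at an adjusted p of 0.071), and Cox7a1 was at 3.92, 1.55, 0.519 and 5.09 CPM and was not called (0.03 ± 1.59, adjusted p = 0.992). Of 39 genes of glycolysis and the hypoxia response 21 rose and 8 fell (5 fell without SE2). Ldha rose from 105 and 127 CPM to 885 and 784 CPM (2.85 ± 0.211), and the hypoxia targets Egln3 (3.2 and 4.64 CPM in SF, 196 and 128 CPM in SE, 5.36 ± 0.306) and Bnip3 (5.04 ± 0.3) rose with it. The hypoxia factor gene Epas1 fell from 223 and 230 CPM to 1.89 and 2.57 CPM (-6.67 ± 0.411) and Ndrg1 from 584 and 798 CPM to 4.81 and 7.49 CPM (-6.82 ± 0.316), so that genes known to respond to hypoxia changed in both directions. Epas1 is also high in endothelial cells, whose markers summed to 464 and 592 CPM in SF and to 7.45 and 9.43 CPM in SE. Their part in the decrease of Epas1 was not tested. Of 40 genes of fatty acid uptake and oxidation 19 rose and 9 fell, and 12 rose without SF1 and with median-ratio size factors. Fabp3 of muscle rose (2.89 ± 0.694, not called without SF1, adjusted p = 0.051), while Fabp4 of fat and endothelial cells was not counted in SE (at least 431-fold lower), Cd36 fell by 4.61 on the log2 scale, Angptl4 fell by 3.80, and Pdk4, which diverts fuel from glucose to fat, fell by 1.15 (adjusted p = 0.0133, and 0.0519 without SF1).

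Biosynthetic genes split by pathway. Of 35 genes of the amino acid stress response and serine synthesis 18 rose and 5 fell (3 fell without SE1 and 3 without SF2). Phgdh, the first enzyme of serine synthesis, rose from 9.3 and 9.02 CPM to 139 and 128 CPM (3.87 ± 0.206, adjusted p = 2.49e-06), and Asns, the asparagine synthetase, from 2.47 and 2.49 CPM to 65.1 and 102 CPM (5.07 ± 0.276). Fgf21, a secreted signal of metabolic stress, had no count in SF and was at 6.32 and 27 CPM in SE (at least 79.4-fold higher). The factors at the head of the response did not share this direction, since Atf4 (450 and 627 CPM in SF, 233 and 313 CPM in SE) and Ddit3 were among the 5 lower genes, with Slc1a5, Pycr1 and Cbs, named after their values were seen. The site of the response, TGATGNAA on either strand, was in 37.9% of the promoters of this list (11 of 29) and in 4.51% of all genes. It is shown in capitals in the 150 bases before the start of Asns.
Asns (chr6:7693210-7693359, minus strand): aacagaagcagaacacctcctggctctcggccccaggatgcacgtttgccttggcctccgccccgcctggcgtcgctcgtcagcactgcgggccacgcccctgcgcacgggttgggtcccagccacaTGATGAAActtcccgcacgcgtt
Of 25 genes of cholesterol synthesis and uptake 12 fell and 3 rose (1 rose without SE2 and 1 without SF1). The enzyme genes Hsd17b7, Idi1 and Sc5d fell by between 2.09 and 2.78 on the log2 scale. Hmgcs1 fell from 51.6 and 76.7 CPM to 30.1 and 39.4 CPM (-0.88 ± 0.252, adjusted p = 0.0194), a call lost without SE1 (0.0887) and without SF2 (0.128). The sterol response element TCACNCCAC was in 5.88% of their promoters (1 of 17) and in 1.44% of all genes. Among 42 genes of ribosome biogenesis and the Myc network 6 rose and 13 fell (3 rose without SE1, 6 fell without SF2), with a median of -0.23, the same as for all tested genes. Myc fell from 798 and 1065 CPM to 52.8 and 34.3 CPM (-4.42 ± 0.279), Mycn was not counted in SE (at least 60.1-fold lower), and Mycl rose from 1.31 and 0.336 CPM to 41.1 and 92.7 CPM (6.35 ± 0.61). The nucleolar gene Nop58 fell from 404 and 519 CPM to 142 and 110 CPM (-1.88 ± 0.209). Antioxidant genes were divided (15 of 32 higher, 11 lower), and the metallothioneins Mt1 (621 and 769 CPM in SF, 16.4 and 22.2 CPM in SE, -5.17 ± 0.254) and Mt2 (-6.42 ± 0.624), which metals and stress induce, and the secreted peroxidase Gpx3 (-3.20 ± 0.248) fell.

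Growth genes with fetal or imprinted expression changed in both directions. Of 33 imprinted genes 10 rose and 14 fell. Igf2 rose with its neighbor H19, from 117 and 126 CPM to 1109 and 3190 CPM (4.15 ± 0.461, adjusted p = 0.000113), and SE2 held more of both. Mest rose from 28.9 and 48.7 CPM to 1211 and 841 CPM (4.72 ± 0.432). At the Dlk1-Meg3 locus Meg3 fell from 678 and 766 CPM to 74.9 and 160 CPM (-2.62 ± 0.337), and Dlk1 was at 7.05, 7.54, 14.9 and 7.26 CPM in SF1, SF2, SE1 and SE2 and was not called (0.61 ± 0.332, adjusted p = 0.163, and 0.00681 without SE2). Kcnq1ot1, a nuclear noncoding RNA, fell (-3.74 ± 0.677) from 8816 CPM in SF1 and 1549 CPM in SF2, a wide gap within the fresh group, to 420 and 357 CPM. Among 25 genes of insulin-like growth factor signaling and fetal growth 8 rose and 9 fell. Hmga2, a chromatin protein of fetal cells, rose from 9.08 and 0.404 CPM to 279 and 91.2 CPM (5.30 ± 1.02), and Igf2bp2 from 44.9 and 55.6 CPM to 143 and 121 CPM (1.39 ± 0.192). Igfbp2 rose from 0.363 and 0.336 CPM to 17.8 and 15.8 CPM (5.56 ± 0.326), Igfbp6 fell from 239 and 256 CPM to 7.97 and 8.18 CPM (-4.94 ± 0.278), and Igf1 fell from 62.8 and 78.9 CPM to 2.83 and 25.2 CPM (-2.35 ± 0.691). Of 28 genes of DNA methylation and chromatin 12 rose and 10 fell. Dnmt1, the maintenance methyltransferase, rose from 34 and 54.6 CPM to 237 and 117 CPM (2.00 ± 0.341), and the demethylase Kdm6b fell from 1793 and 2353 CPM to 121 and 208 CPM (-3.66 ± 0.296). Ezh2, of the Polycomb complex, was at 45.1, 52.4, 83 and 60 CPM (0.55 ± 0.214, adjusted p = 0.0642, and 0.0171 without SE2), and its homolog Ezh1 fell from 40.9 and 42.6 CPM to 12.4 and 24.9 CPM (-1.16 ± 0.361, adjusted p = 0.0282), a call lost without SE1 (0.158), SF1 (0.0732) or SF2 (0.0735).

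Of 34 Hox genes, which record position along the body, 2 rose (Hoxa9 and Hoxa11) and 3 fell (Hoxb1, Hoxb3 and Hoxb4), the latter at 10 CPM or less in every library. The 3 decreases were not called without SF1, and the increases of Hoxa11 (1.45 and 0.606 CPM in SF, 24.5 and 9.78 CPM in SE, 4.05 ± 0.907) and Hoxa9 (3.10 ± 0.714) were lost without SE1 (adjusted p = 0.0782 and 0.0501). Hoxc10, a hindlimb gene, was at 47.7, 64.1, 38.7 and 38.5 CPM in SF1, SF2, SE1 and SE2 (-0.54 ± 0.454, adjusted p = 0.359), and Hoxa10 at 6.25, 9.29, 24 and 16.1 CPM (adjusted p = 0.233). Among 26 factors of regional muscle identity 7 rose and 10 fell, and 6 fell without SE1 and 6 without SF1. Lbx1 of limb muscle precursors was at 29.5, 38.1, 50.9 and 38 CPM and was not called (adjusted p = 0.359), and the nuclear factor genes Nfib (411 and 499 CPM in SF, 10.8 and 12.9 CPM in SE, -5.26 ± 0.227) and Nfix (380 and 522 CPM in SF, 218 and 272 CPM in SE, -0.88 ± 0.219) fell, the latter not without SE1 (0.0561). Pitx3 rose from 2.33 and 2.56 CPM to 38.6 and 31.1 CPM (3.83 ± 0.381), and Tbx5 and Alx4 fell, both calls being lost without SF1 (0.139 and 0.105).

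The change with culture was also compared with that of teratoma-derived cells, as the test of the difference between SE versus SF and TE versus TF in the same fit, whose libraries do not overlap. The effect differed for 14.3% of tested genes, higher in satellite cells for 1691 genes and lower for 826. For mitosis genes the difference was called for 41 of 49 members, all higher in satellite cells, with a median of 3.73 on the log2 scale, and for sarcomere genes for 27 of 55, all higher, with a median of 2.47. The median change of mitosis genes was 0.59 in teratoma-derived cells and 4.51 in satellite cells. For sarcomere genes, which rose in both, it was 2.30 and 4.29. Each change is relative to the fresh group of the same origin. Among 42 collagens 24 were higher and 1 lower by this test, and their median change was -4.80 in teratoma-derived cells and -2.21 in satellite cells. Amino acid stress and serine synthesis went the other way, with 13 of 35 lower and 1 higher and medians of 2.35 and 1.24. Of 32 immediate early genes 2 were higher and 9 lower by this test, of 38 interferon response genes 3 and 5, and of 29 chemokines and receptors 2 and 4.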

How the data were processed

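RNA was extracted with a column kit including removal of genomic DNA, and libraries were made from total RNA with a strand-specific SMARTer kit (v2 Pico) and sequenced in pairs. The deposited table holds estimated counts per gene for 24980 gene symbols, which the authors made by pseudoalignment. The submitters' processing notes name CASAVA, kallisto 0.44.0 and the mouse build GRCm38 (mm10). How transcripts were summed to genes was not given in the sources used here.

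The estimates were rounded for the count model, filterByExpr kept 17582 genes, and library totals were scaled by TMM. One negative binomial model over the 4 groups of 2 libraries, which therefore share 1 estimate of the spread (common dispersion 0.233), was fitted in edgeR 4.0.16 (R 4.3.3) and tested by quasi-likelihood with Benjamini-Hochberg adjustment. Called genes had an adjusted p below 0.05 and a fold change above 1.25. Total counts ranged from 11930881 to 21146554 over the 8 libraries and from 13973324 in those of satellite cells. For a gene without counts in a group, the fold was bounded with 3 counts per library, which covers counting error only, and no fold was given where a group held at most 3 counts in all. Comparisons were also run with DESeq2 1.42.0 and the other alternatives of the closing section. In simulated data with 16962 genes, 200 genes were changed between SE and SF and the others were left equal. There the SE versus SF test found 31.3% of genes changed 2.5-fold, 50.7% of those changed 4-fold and 72.7% of those changed 8-fold. Of its calls, 2.83% fell on unchanged genes. In the real data 40.7% of tested genes were called, a far larger share, so these rates need not hold there.

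The comparison and the gene lists were chosen with earlier results of these data known. Genes were named by rule: the 10 largest changes in each direction, the 5 most abundant genes per direction absent from 1 group, key genes of each list with up to 4 of its largest changes, the 10 largest ratios between SE1 and SE2 in each direction among genes reaching 20 CPM, and markers at 10 CPM or more. Promoters were taken from RefSeq (GRCm38.p6). Some genes of the lists are counted but not reported by name here.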

Additional observations from a re-analysis of the deposited data

Results flagged for a closer look

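The response to culture was tested for a difference between satellite cells and teratoma-derived cells, and it differed for 1691 genes whose change was higher in satellite cells and 826 whose change was lower. With DESeq2 these counts were 1975 and 1544. No explanation was tested.

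Among the 20 genes with the largest changes in satellite cells, 13 differed by this test (edgeR, adjusted over all genes), against 14.3% of all tested genes. The 20 genes were chosen for their change in satellite cells, which is part of this test, so the choice favors a difference and a large excess. One of the 13 was H19 (adjusted p = 9.17e-05, higher in satellite cells), for which no difference is given because a teratoma group held at most 3 counts. The log2 change of satellite cells exceeded that of teratoma-derived cells by 8.06 for Hist1h2ac, 7.55 for Spp1, 6.58 for Myog and 5.06 for Tnnt2. For the contractile and fusion genes Actc1, Tnni1, Myl4, Mymk and Myh7 the excess was 4.35, 3.98, 3.66, 3.56 and 2.62. For the decreases of Cxcl1, Map2 and H2-Q4 the difference was -5.63, -4.29 and -2.32. With 2 libraries per group, no library could be tested for standing apart within its group.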

How the results depend on the processing

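Of 245 named genes tested, 217 were called, and 193 of these were called in the same direction under all 12 alternatives. The counts of genes higher and lower in SE stayed within 1.5 times 3677 and 3475 under the alternatives run. They were 3366 and 4870 with DESeq2, 3064 and 3958 with size factors from median ratios in edgeR, 3200 and 3795 with Rn45s left out and 2931 and 3398 with only the SE and SF libraries fitted. Leaving out 1 library gave between 3013 and 3406 higher and between 2530 and 2996 lower genes. For the difference by origin, the genes lower in satellite cells numbered 1284 without the filter on low counts and 1544 with DESeq2, against 826. The cause was not tested.

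With the replicate number as a block, 3535 genes were higher and 3222 lower, 1569 and 758 for the difference by origin, and 2661 and 2830 with the block and only the SE and SF libraries. The numbers do not mark shared animals, and the deviations of same-numbered libraries had a correlation of -0.0201 across 17582 genes, so this pairing is of number only.

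The reversals concern genes that were not called with all libraries. Among genes named for their difference between SE1 and SE2, which favors a reversal, Slc5a3 turned to -1.40 without SE1 (adjusted p = 0.000578), Plekha7 to -2.36 without SE2 (0.012) and S1pr1 to -1.75 without SE2 (0.0187), all called, and Hist1h4n was also called lower without SE2 (0.00426). Leaving out 1 library gave log2 fold changes from -0.60 to 2.36 for Ckm, -0.51 to 1.85 for Cdkn1c, -0.24 to 0.84 for Dbp, -1.78 to 0.052 for Cxcl12 and -0.09 to 1.3 for Tnc, the extremes being those without SE1 or SE2. Cox7a1 turned to -0.17 with DESeq2 and -0.17 with median-ratio factors, -0.10 with Rn45s left out, -0.54 with the block on only the SE and SF libraries, -2.37 without SE2 and -0.47 without SF2, with 0.92 without SE1. With 2 libraries per group and 200 changed genes, a change of 2.5-fold was often missed in simulated data, a rate that need not hold for the real data.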
